A study of Mus musculus with 10 samples.

Results

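The 36 genes described here make up the cell's machinery for sensing and relieving protein-folding stress in the endoplasmic reticulum (ER), together with the integrated stress response that shares an arm with it. They were chosen by name as 7 sensors, eIF2 kinases and their substrate, 7 transcription factors and cofactors, 12 ER chaperones and folding enzymes, 4 genes of ER-associated degradation (ERAD) and 6 targets of the transcription factor ATF4. All 36 have a row among the 22457 genes of the deposited count table, and 35 had enough counts to be tested. Counts came from RNA-seq of mouse tracheal epithelial organoids, which are hollow or solid epithelial bodies grown in Matrigel from basal cells, which renew the airway lining. There were 3 libraries from control mice (Ctrl) and 3 from M3-CKO mice, whose basal cells carry a knockout of Mettl3, the enzyme that writes N6-methyladenosine on messenger RNA. Organoids of both groups were harvested on day 14. Both groups were grown, per the labels' protocols, in MTEC/Plus medium with insulin, transferrin, cholera toxin, epidermal growth factor, pituitary extract, retinoic acid, serum and inhibitors of TGF-beta and BMP receptors (A83-01 and DMH-1), and a ROCK inhibitor (Y-27632) was present for the first days. The allele, the Cre driver and the strain, age and sex of the mice are not stated in the labels, nor is it said whether replicates are separate animals.

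When unfolded proteins collect in the ER, the membrane sensors IRE1 (Ern1 and, in mucosal epithelia, Ern2), ATF6 and PERK (Eif2ak3) are activated. IRE1 splices Xbp1 mRNA, cleaved ATF6 moves to the nucleus, and spliced XBP1 and ATF6 induce chaperones and ERAD genes. PERK, GCN2 (Eif2ak4) and HRI (Eif2ak1) phosphorylate eIF2 alpha (Eif2s1), which lowers general translation and favours translation of Atf4, whose targets include amino acid enzymes and the factor CHOP (Ddit3). Secretory airway cells carry a high folding load, and much of the response runs through splicing, cleavage and phosphorylation, which gene counts do not record.

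Library totals ran from 8906375 to 10485922 counts, and the tested members had between 46 and 13731 counts in each library. Values listed for a group are in the order of replicates 1 to 3. Mettl3 stood at 14.96, 17.0 and 18.9 CPM (counts scaled to the library total, after TMM normalisation) in Ctrl and at 11.1, 10.3 and 9.87 CPM in M3-CKO, with no overlap (log2 fold change -0.70, SE 0.21, adjusted p = 0.12, or 0.043 with M3-CKO replicate 3 left out). The M3-CKO mean was 61.4% of Ctrl, and since the deleted exons are not stated, a whole-gene count checks the labels only in part. M3-CKO replicate 3 stood apart from its group, with a Pearson r across genes of 0.925 and 0.914 with M3-CKO replicates 1 and 2, against 0.988 between those replicates. Its r with Ctrl replicates 1 to 3 was 0.931, 0.932 and 0.928, so it was no closer to its own group than to Ctrl. The 7 basal cell markers looked up were Krt5, Krt14, Krt15, Trp63, Ngfr, Pdpn and Dapl1. They summed to 1948 to 2394 CPM in Ctrl and 682 to 1096 CPM in M3-CKO. Krt15 had the largest drop, from 947 to 1078 CPM in Ctrl to 165 to 264 CPM in M3-CKO. Krt5, Krt14 and Krt15 were called lower, whereas Trp63, Ngfr and Pdpn overlapped between the groups (log2 fold changes -0.81, -0.75 and -0.06). The 6 club cell markers summed to 6845 to 7449 CPM in Ctrl and 2935 to 8871 CPM in M3-CKO. Cbr2 and Cyp2f2 made up the largest parts of the club sum. The club marker Scgb1a1 stood at 2.81 to 5.57 CPM in Ctrl and 37.5 to 359 CPM in M3-CKO (log2 fold change 5.23, adjusted p = 0.033). The other club markers overlapped between the groups. The 6 goblet cell markers summed to 95.8 to 193.4 CPM in Ctrl and 422 to 1055 CPM in M3-CKO. Most of that difference was Gp2, at 52.7 to 88.2 and 269 to 969.9 CPM, while Muc5ac, Muc5b and Spdef overlapped between the groups. The 6 ciliated cell markers summed to 17.0 to 52.6 and 47.9 to 95.2 CPM in Ctrl and M3-CKO, and the 6 hillock and squamous markers to 1373 to 1405 and 676 to 1173 CPM. The hillock and squamous markers did not move together. Cldn3, the largest part of their M3-CKO sum, had a positive log2 fold change (0.86, adjusted p = 0.15). The other 5 had negative ones, with Krt4 (-1.82, adjusted p = 0.027) and Sprr1a (-0.95, adjusted p = 0.039) called lower. The part of these shifts in the values of the stress genes was not tested. The 4 mesenchymal markers with a row summed to at most 12.9 CPM and the 2 endothelial ones to at most 0.317 CPM in any library. The 4 immune markers with a row summed to 536 to 1433 CPM in Ctrl and 456 to 789.6 CPM in M3-CKO, most of it Lyz2, with Ptprc, the leukocyte marker CD45, at 0 in every library but Ctrl replicate 2 (0.211 CPM). Of the markers of plasma cells, which are known for a strong unfolded protein response, Jchain was at 0 in all Ctrl libraries and at 0.571 to 2.24 CPM in M3-CKO, and Mzb1 stayed at or below 0.579 CPM, while Sdc1, which epithelial cells also express, stood at 1524 to 1995 CPM in Ctrl and 1716 to 1949 CPM in M3-CKO. In bulk RNA, fewer cells of a type and less RNA per cell cannot be told apart.

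None of the 35 tested members passed the edgeR quasi-likelihood test of M3-CKO against Ctrl at an adjusted p under 0.05. Over all 13528 genes tested, 2.91% passed, 1.74% as higher and 1.16% as lower. At an unadjusted p under 0.05 there were 6 members, 3 higher and 3 lower in M3-CKO, or 17.1% of the members tested against 20.5% of all genes. DESeq2 called 3 members (it called 10.4% of all genes), namely Pdia4 and Cebpg as higher and Edem1 as lower, and limma-voom called 0 (2.23% of all genes). Of the 35 members, 12 had a positive and 23 a negative log2 fold change (M3-CKO minus Ctrl). Their median was -0.08 and that of all genes 0.02, and the median absolute log2 fold change was 0.24 for the members and 0.31 for all genes. The largest absolute value was 0.77, so no tested member reached a 2-fold difference, which 11.3% of all tested genes did. The groups did not overlap for 9 members (25.7%), against 27.1% of all genes.

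**Figure D1:**
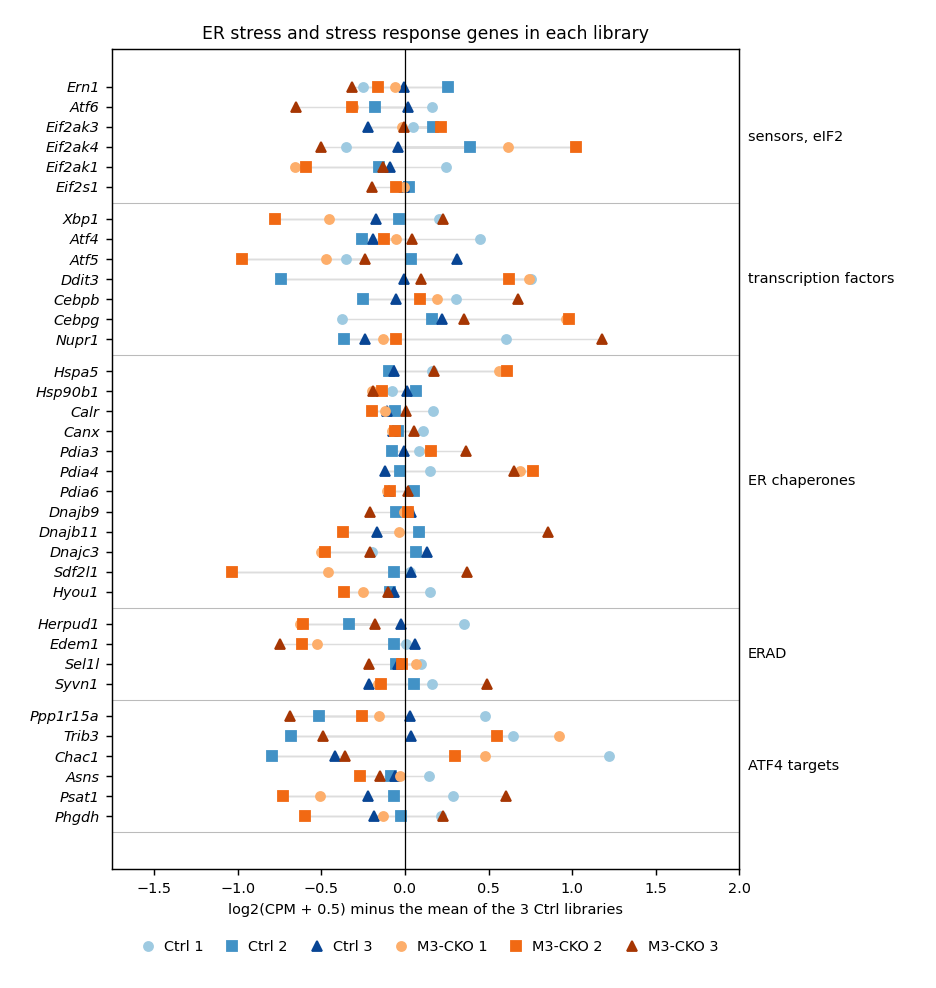
Each point is the log2(CPM + 0.5) of a gene in one library minus the mean of the 3 Ctrl libraries, for the 35 tested members in rows grouped by role. Blue points are Ctrl and orange to brown points M3-CKO, and the groups separate for 9 genes, among them Pdia4, Hspa5 and Cebpg to the right and Edem1, Atf6 and Dnajc3 to the left.

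Among the ER chaperones, Pdia4 had the clearest separation of the groups. Pdia4 encodes ERp72, a protein disulfide isomerase that forms and rearranges disulfide bonds in secretory proteins. It stood at 231, 204 and 191 CPM in Ctrl and at 335, 353 and 327 CPM in M3-CKO. Every M3-CKO library, replicate 3 included, lay well above every Ctrl library. The M3-CKO mean was 338 ± 13.7 CPM against 209 ± 20.2 CPM (SD, n = 3), or 162% of Ctrl, and the log2 fold change was 0.70 (SE 0.14). The adjusted p was 0.0503, just above the threshold, and the gene ranked 402 by p where 393 genes were called. The call was made with library size alone (adjusted p = 0.0404), with a stricter filter (0.0456), with the 20 most abundant genes left out (0.0469), by DESeq2 (4.4e-04), without M3-CKO replicate 3 (0.0052) and without replicate 3 of both groups (0.019). Under the other 9 alternatives the adjusted p lay between 0.050 and 0.23.

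Hspa5, which encodes BiP, the ER chaperone of the HSP70 family that also holds the sensors inactive, was the other chaperone that was higher with an unadjusted p under 0.05. It stood at 879, 737 and 752 CPM in Ctrl and at 1164, 1202 and 888 CPM in M3-CKO. M3-CKO replicate 3 lay only just above Ctrl replicate 1, and the other M3-CKO libraries lay clearly above all of Ctrl. The log2 fold change was 0.46 (SE 0.18, adjusted p = 0.21), and it was 0.58 (adjusted p = 0.016) without M3-CKO replicate 3. Dnajc3, which encodes p58IPK, an ER co-chaperone of BiP and inhibitor of eIF2 alpha kinases, pointed the other way. Its level was 306, 367 and 386 CPM in Ctrl and 248, 252 and 304 CPM in M3-CKO, and the log2 fold change was -0.40 (SE 0.17, adjusted p = 0.23; -0.50 and 0.028 without M3-CKO replicate 3). The highest M3-CKO library thus nearly met the lowest Ctrl library.

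For 7 more chaperones and folding enzymes, none called, the log2 fold changes lay between -0.24 and 0.22. Calr, a lectin chaperone of the glycoprotein folding cycle, stood at 633 to 769 CPM in Ctrl and 597 to 688 CPM in M3-CKO (log2 fold change -0.11, SE 0.16). Canx, its membrane-bound relative, stood at 408 to 461 and 406 to 444 CPM (-0.03, SE 0.14). Hsp90b1, the ER form of HSP90 (GRP94), stood at 412 to 453 CPM in Ctrl and 379 to 395 CPM in M3-CKO, a small difference without overlap (-0.17, SE 0.14, adjusted p = 0.53). Pdia3, the disulfide isomerase that works with calreticulin and calnexin, stood at 280.3 to 314 CPM in Ctrl and 326 to 381 CPM in M3-CKO, also without overlap (0.22, SE 0.15, adjusted p = 0.44). Hsp90b1 and Pdia3 thus separated the groups by less than Pdia4. Pdia6, another disulfide isomerase, stood at 118 to 131 CPM in Ctrl and 117 to 127 CPM in M3-CKO (-0.06, SE 0.13). Dnajb9 (ERdj4), a BiP co-chaperone and a target of XBP1, stood at 131 to 139.8 and 118 to 139 CPM (-0.06, SE 0.14). Hyou1, a large ER chaperone and exchange factor for BiP, stood at 158 to 187 CPM in Ctrl and 131 to 157 CPM in M3-CKO, narrowly without overlap (-0.24, SE 0.15, adjusted p = 0.42).

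For the BiP co-factors Dnajb11 (ERdj3) and Sdf2l1 the M3-CKO group did not hold together. Dnajb11 stood at 71.1, 71.0 and 59.8 CPM in Ctrl and at 65.5, 51.7 and 122 CPM in M3-CKO. Sdf2l1, which forms a complex with ERdj3, stood at 29.7, 27.7 and 29.8 CPM in Ctrl and at 21.0, 13.9 and 37.7 CPM in M3-CKO. For both genes M3-CKO replicate 2 was the lowest and M3-CKO replicate 3 the highest of the 6 libraries. With that library left out, the log2 fold change of Dnajb11 turned from 0.24 to -0.20 (adjusted p = 0.37), and that of Sdf2l1 went from -0.26 to -0.74 (adjusted p = 0.032). Over the 12 chaperones 0 were called in either direction, 4 had a positive and 8 a negative log2 fold change, and the groups did not overlap for 6 (27.1% of all genes). Their median was -0.06 and their mean 0.02, so the signs differ.

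**Figure D2:**
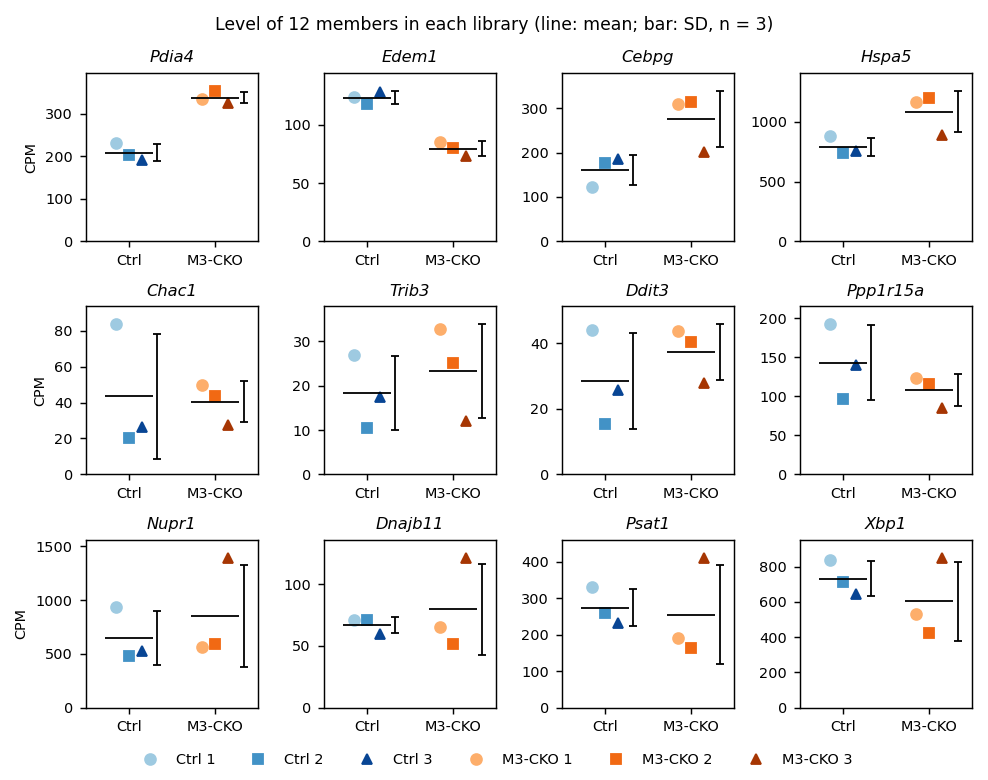
Levels in CPM (vertical axes, from 0) of 12 members in each of the 6 libraries, with the mean as a line and the SD over 3 libraries as a bar. Pdia4 and Edem1 hold 3 M3-CKO libraries close together and apart from Ctrl, Chac1 has a single high Ctrl library, and Nupr1, Dnajb11 and Psat1 have a single high M3-CKO library, replicate 3.

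A promoter element of the ER stress response was found in part of the chaperone genes. The members were chosen by name as known genes of this response. The shares of such elements among them are therefore no independent result. The ER stress response element, bound by ATF6 with the CCAAT factor NF-Y, is CCAAT followed after 9 bases by CCACG. It was searched on both strands in RefSeq windows (build GRCm38.p6) of 300 bases, from 250 bases before to 50 bases after each annotated start, and 33 of the 36 members had a window. The element was found in 7 of the 33 (21.2%), namely Hspa5, Hsp90b1, Calr, Canx, Pdia6, Dnajc3 and Syvn1, and in 0.119% of all 32851 windows. The matches are shown as a sequence feature that part of the chaperones and Syvn1, of the ERAD group, share. They are written so that CCAAT and CCACG, in capitals, come first and last.
Hspa5, chr2:34772025-34772043, plus strand: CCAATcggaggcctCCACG
Calr, chr8:84847075-84847093, plus strand: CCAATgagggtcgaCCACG
Hsp90b1, chr10:86705638-86705656, minus strand: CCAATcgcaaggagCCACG
Hsp90b1, chr10:86705533-86705551, plus strand: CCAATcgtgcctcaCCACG
Canx, chr11:50325800-50325818, minus strand: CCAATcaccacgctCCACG
Pdia6, chr12:17266491-17266509, plus strand: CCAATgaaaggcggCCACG
Dnajc3, chr14:118937827-118937845, plus strand: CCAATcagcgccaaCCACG
Syvn1, chr19:6046532-6046550, plus strand: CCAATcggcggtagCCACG
The spacers differ from gene to gene, and Hsp90b1 holds the element at 2 places. The log2 fold changes of these 7 genes ran from -0.40 in Dnajc3 to 0.46 in Hspa5, none of them called and those of Calr, Canx, Pdia6 and Syvn1 smaller than their SE. A match describes letters and does not show binding.

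The second form of the element (ATTGG, 1 base, CCACG) was found in Dnajb11 and Herpud1, 6.06% of the members with a window against 0.0365% of all windows. The XBP1-type core TGACGTGG, whose complement also holds CCACG, was found in 0 members and in 0.676% of all windows. The C/EBP-ATF element TGATGNAA, searched for ATF4 targets, was found in Nupr1, Herpud1, Trib3, Chac1 and Asns, 15.2% of the members with a window against 3.97% of all windows. The log2 fold changes of these 5 genes were 0.39, -0.48, 0.35, -0.10 and -0.15. The 250 bases before the start are shown next for the 3 members of lowest adjusted p (Pdia4, Edem1 and Cebpg) and for the textbook ER stress genes Hspa5 and Ddit3. Capitals mark CCAAT and CCACG on either strand, found in 33.8% and 28.3% of all such stretches, and in Hspa5 also the spacer inside the full element.
Pdia4, chr6:47813513-47813762, minus strand: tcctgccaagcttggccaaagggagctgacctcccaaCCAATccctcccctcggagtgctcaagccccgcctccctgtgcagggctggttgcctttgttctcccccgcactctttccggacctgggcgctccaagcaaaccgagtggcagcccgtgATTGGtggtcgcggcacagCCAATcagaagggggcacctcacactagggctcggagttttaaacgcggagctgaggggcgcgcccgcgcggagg
Edem1, chr6:108828391-108828640, plus strand: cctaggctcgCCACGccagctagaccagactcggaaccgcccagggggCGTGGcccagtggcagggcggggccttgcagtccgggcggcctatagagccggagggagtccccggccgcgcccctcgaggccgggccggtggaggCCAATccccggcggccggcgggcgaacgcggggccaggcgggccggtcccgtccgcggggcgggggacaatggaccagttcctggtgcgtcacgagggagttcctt
Cebpg, chr7:35056567-35056816, minus strand: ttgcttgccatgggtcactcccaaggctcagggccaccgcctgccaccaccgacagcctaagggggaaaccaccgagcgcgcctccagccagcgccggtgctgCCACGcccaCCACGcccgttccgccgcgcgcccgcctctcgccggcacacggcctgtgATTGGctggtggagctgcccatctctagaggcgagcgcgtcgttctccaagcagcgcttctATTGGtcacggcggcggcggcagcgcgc
Hspa5, chr2:34771840-34772089, plus strand: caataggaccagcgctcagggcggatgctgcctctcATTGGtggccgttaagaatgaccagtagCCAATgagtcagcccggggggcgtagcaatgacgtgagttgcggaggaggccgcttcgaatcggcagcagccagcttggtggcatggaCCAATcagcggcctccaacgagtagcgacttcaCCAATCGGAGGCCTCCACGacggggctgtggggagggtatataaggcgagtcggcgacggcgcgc
Ddit3, chr10:127290543-127290792, plus strand: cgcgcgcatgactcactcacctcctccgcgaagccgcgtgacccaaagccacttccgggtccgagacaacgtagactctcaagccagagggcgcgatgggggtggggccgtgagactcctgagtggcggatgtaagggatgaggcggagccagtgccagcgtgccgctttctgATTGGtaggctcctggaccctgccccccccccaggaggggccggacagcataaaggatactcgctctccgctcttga
Pdia4 has 3 CCAAT boxes and 0 CCACG in this stretch, Edem1 has 1 and 2, Cebpg 2 and 2, Hspa5 4 and 1, and Ddit3 1 and 0. Pdia4, with the lowest adjusted p among the members, therefore lacks the full element in these letters, while Hspa5 has it close to its start. A match outside the window was not looked for.

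In the ERAD group, Edem1 was lower in every M3-CKO library. Edem1 encodes a mannosidase-like lectin that extracts misfolded glycoproteins from the folding cycle for disposal. Its level was 124, 118 and 128 CPM in Ctrl and 85.4, 80.3 and 73.2 CPM in M3-CKO. Both groups were tight and clearly separate, at 123 ± 5.43 against 79.6 ± 6.09 CPM (SD, n = 3), with M3-CKO at 64.6% of Ctrl. The log2 fold change of -0.63 (SE 0.14) missed the threshold (adjusted p = 0.0558; 0.0030 by DESeq2 and 0.0084 without M3-CKO replicate 3), and its adjusted p lay between 0.051 and 0.23 under every alternative but DESeq2 and those that left out M3-CKO replicate 3.

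Herpud1, an ER membrane protein that assembles the degradation complex, stood at 293, 182 and 226 CPM in Ctrl and 148, 150.2 and 203 CPM in M3-CKO. The groups overlapped at Ctrl replicate 2 and M3-CKO replicate 3 (-0.48, SE 0.22, adjusted p = 0.27; -0.65 and 0.041 with M3-CKO replicate 3 left out, and -0.28 without Ctrl replicate 1). The ubiquitin ligase Syvn1 (HRD1) stood at 39.5 to 51.4 CPM in Ctrl and 41.0 to 64.9 CPM in M3-CKO (0.09, SE 0.23). Its partner Sel1l stood at 447 to 495 and 400.3 to 486 CPM (-0.05, SE 0.15). Both changed sign when single libraries were left out. In the ERAD group 0 of 4 were called, 3 had a negative log2 fold change, and the median was -0.27.

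Of the sensors, Atf6 was lower without overlap. It stood at 201, 159 and 182 CPM in Ctrl and at 145, 144 and 115 CPM in M3-CKO, and the log2 fold change was -0.43 (SE 0.17, adjusted p = 0.20). M3-CKO replicate 3 was the lowest of all libraries here, and leaving it out gave -0.33 (adjusted p = 0.10). Ern1, the widely expressed IRE1, stood at 84.9 to 120.6 CPM in Ctrl and 81.1 to 96.8 CPM in M3-CKO (-0.19, SE 0.17). Eif2ak3, the PERK gene, stood at 48.9 to 64.2 and 56.3 to 66.3 CPM (0.06, SE 0.17), so both had overlapping groups.

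Ern2, the IRE1 form of mucosal epithelia, was close to absent. It had 7, 6 and 10 counts in Ctrl replicates 1 to 3 and 2, 0 and 3 counts in M3-CKO replicates 1 to 3. The groups did not overlap, but the counts fell below the filter and the gene was not tested with the others. The 0 in M3-CKO replicate 2 allows a level of up to 0.342 CPM (a floor of 3 counts, counting error only). Without a low-count filter its log2 fold change was -2.22 (SE 1.07, adjusted p = 0.35).

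The eIF2 kinases other than PERK showed the spread inside the M3-CKO group. Eif2ak4 (GCN2, the sensor of uncharged tRNA) stood at 5.24, 9.09 and 6.63 CPM in Ctrl and at 10.7, 14.4 and 4.68 CPM in M3-CKO. The first and second libraries were above all of Ctrl and replicate 3 below all of it, and the log2 fold change was 0.50 (SE 0.44, adjusted p = 0.57), which was 0.84 without replicate 3 and 0.16 without replicate 2. Eif2ak1 (HRI, the heme-regulated kinase) stood at 61.1, 46.3 and 48.4 CPM in Ctrl and at 32.5, 34.0 and 47.1 CPM in M3-CKO, so that only replicate 3 reached the Ctrl range (-0.46, SE 0.21, adjusted p = 0.27; -0.65 and 0.024 without it). Eif2s1, the shared substrate, was among the steadiest members, at 68.5 to 70.3 CPM in Ctrl and 60.2 to 68.8 CPM in M3-CKO (-0.08, SE 0.14). Of the 6 tested genes of this group 0 were called, 4 had a negative log2 fold change, and the median was -0.14.

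Among the transcription factors, Cebpg had the largest log2 fold change of all tested members. CEBPG is a C/EBP partner that forms dimers with ATF4. Its level was 122, 177 and 185 CPM in Ctrl and 309.9, 314 and 202 CPM in M3-CKO. Replicate 3 lay just above the highest Ctrl library, and the other M3-CKO libraries were far above it (log2 fold change 0.77, SE 0.24, adjusted p = 0.13; 0.95 and 0.0070 without replicate 3; 0.0446 by DESeq2).

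Xbp1 itself, which encodes the factor that IRE1 activates by splicing, split the M3-CKO group. It stood at 839, 710.4 and 644 CPM in Ctrl and at 531, 425 and 852 CPM in M3-CKO. Replicate 3 was the highest of the 6 libraries, and the other M3-CKO libraries were below all of Ctrl (-0.28, SE 0.27, adjusted p = 0.62; -0.62 and 0.027 without replicate 3). These whole-gene counts do not tell spliced from unspliced Xbp1. Atf5, a relative of Atf4 linked to mitochondrial stress, stood at 70.2, 92.0 and 111 CPM in Ctrl and at 64.4, 45.4 and 76.0 CPM in M3-CKO (-0.56, SE 0.24, adjusted p = 0.25; -0.73 and 0.044 without replicate 3).

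Atf4, the central factor of the integrated stress response, had overlapping groups, at 809.7, 496 and 520.5 CPM in Ctrl and 572, 543 and 611 CPM in M3-CKO (-0.08, SE 0.22). Since Atf4 is regulated mainly through its translation, its count is no measure of its activity. Cebpb, a C/EBP factor of stress and inflammation, stood at 122 to 179.7 CPM in Ctrl and 155 to 233 CPM in M3-CKO, with overlap (0.33, SE 0.22). Nupr1, a stress-induced chromatin cofactor, stood at 939, 479 and 524 CPM in Ctrl and at 563, 595 and 1397 CPM in M3-CKO, where replicate 3 was far above the other libraries of its group (0.39, SE 0.41; -0.17 without replicate 3). The 7 genes of the group had 0 calls, 4 positive values and a median of 0.33, which was -0.13 without M3-CKO replicate 3.

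Several ATF4 targets, and with them Ddit3, had a wide spread inside Ctrl. Chac1, a glutathione-degrading enzyme that ATF4 and CHOP induce, stood at 83.5, 20.3 and 26.5 CPM in Ctrl and at 49.9, 43.9 and 27.7 CPM in M3-CKO. Ctrl replicate 1 was 3.57-fold above the mean of Ctrl replicates 2 and 3 and the highest of all libraries. The log2 fold change of -0.10 (SE 0.52, adjusted p = 0.94) became 0.80 (adjusted p = 0.28) without that library.

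Ddit3, which encodes the pro-death factor CHOP, stood at 44.1, 15.3 and 25.8 CPM in Ctrl and at 43.8, 40.3 and 27.8 CPM in M3-CKO (0.39, SE 0.38, adjusted p = 0.61). Trib3, a pseudokinase induced by CHOP, stood at 27.0, 10.5 and 17.5 CPM in Ctrl and at 32.7, 25.2 and 12.0 CPM in M3-CKO (0.35, SE 0.44, adjusted p = 0.72). The values rested on single libraries. Without Ctrl replicate 1 Ddit3 came to 0.86 and Trib3 to 0.74, without Ctrl replicate 2 to 0.087 and 0.063, and Trib3 to 0.022 without M3-CKO replicate 1. In both genes the groups overlapped, with Ctrl replicate 1 near the upper M3-CKO libraries and Ctrl replicate 2 the lowest of all. Ppp1r15a (GADD34), which directs a phosphatase to eIF2 alpha and so ends the response, stood at 192, 96.3 and 141 CPM in Ctrl and at 123, 115 and 85.2 CPM in M3-CKO (-0.41, SE 0.27, adjusted p = 0.44). Here too Ctrl replicate 1 was highest, and the value without it was -0.13.

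For the amino acid enzymes among the ATF4 targets the groups overlapped. Asns, the asparagine synthetase, was steady at 12.2 to 14.3 CPM in Ctrl and 10.6 to 12.6 CPM in M3-CKO (-0.15, SE 0.22). Psat1, of serine synthesis, stood at 331, 258 and 232 CPM in Ctrl and at 190.0, 163 and 412 CPM in M3-CKO, where replicate 3 was the highest of all libraries and the others the lowest (-0.10, SE 0.35; -0.64 and adjusted p = 0.029 without replicate 3). Phgdh, the first enzyme of the same path, stood at 13.4 to 17.8 CPM in Ctrl and 9.93 to 18.0 CPM in M3-CKO (-0.14, SE 0.28), with the same order of M3-CKO libraries. Of the 6 ATF4 targets 0 were called, 5 had a negative log2 fold change, the median was -0.12, and the groups overlapped for all 6.

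Ctrl replicate 1 was the highest Ctrl library in all 6 ATF4 targets, in 5 of 7 transcription factors, in 7 of 12 chaperones, in 3 of 4 ERAD genes and in 2 of 6 sensors. That is 23 of 35 members (65.7%), against 40.4% of all tested genes. Atf3, a stress-induced factor that ATF4 can induce, had the same shape at 196, 24.1 and 45.0 CPM in Ctrl and 24.5, 26.8 and 7.53 CPM in M3-CKO (chosen after its values were seen). What sets this library apart was not tested.

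**Figure D3:**
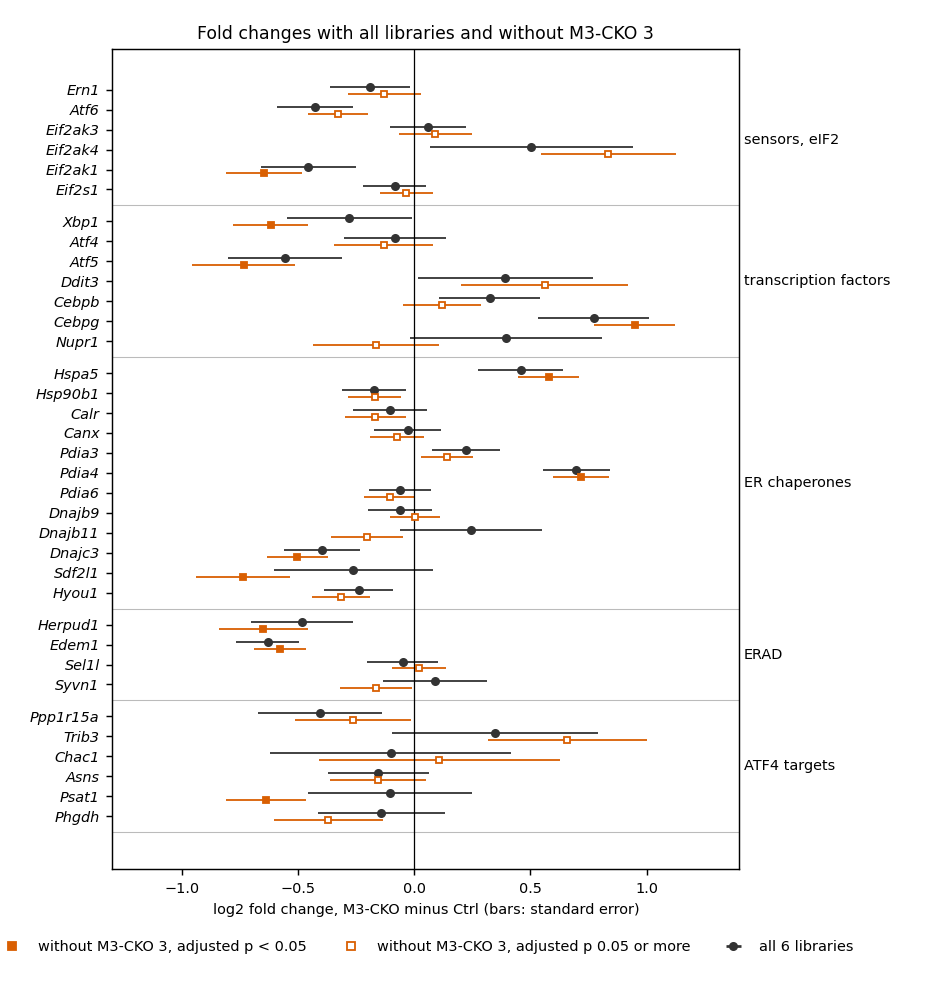
Log2 fold changes (horizontal axis, M3-CKO minus Ctrl, bars are standard errors) of the 35 tested members with all 6 libraries (black circles) and without M3-CKO replicate 3 (orange squares, filled where the adjusted p was under 0.05). Filled squares mark 11 members, 3 to the right of 0 and 8 to the left, while no black circle passed the test.

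M3-CKO replicate 3 lay above both other M3-CKO libraries in 18 members, below both in 14 and between them in 3. It was over 1.5-fold from their mean in 12 members. The median absolute log2 distance was 0.41, whereas M3-CKO replicates 1 and 2 differed by a median of 0.08. The genes in which it was highest by the most were Nupr1 (1.27 on the log2 scale above the mean of replicates 1 and 2), Psat1 (1.23), Sdf2l1 (1.14), Dnajb11 (1.07) and Xbp1 (0.84). Those in which it was lowest by the most were Eif2ak4 (-1.41), Trib3 (-1.26), Chac1 (-0.76), Cebpg (-0.62) and Ddit3 (-0.60). The first set thus holds Xbp1 and the pair of BiP co-factors, but also Nupr1 and the ATF4 target Psat1. The second holds Ddit3 and the ATF4 targets Trib3 and Chac1, with Eif2ak4 and Cebpg. ATF4 targets are therefore in both sets, and Hspa5, the BiP gene, was lower in this library (-0.41). These are single values without a test. The 6 club cell markers were all higher in M3-CKO replicate 3 (median log2 difference 2.01). Their sum there was 8871 CPM against 3503 and 2935 CPM, a shift whose part in the stress genes' values was not tested.

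Without M3-CKO replicate 3, edgeR called 11 of the 35 members, or 31.4%, where 25.0% of all genes were called (13.7% higher and 11.3% lower). Higher were Pdia4, Hspa5 and Cebpg, and lower were Eif2ak1, Xbp1, Atf5, Dnajc3, Sdf2l1, Herpud1, Edem1 and Psat1. The M3-CKO group is then a pair of libraries closer to each other than any pair in Ctrl, so these p-values rest on a narrow spread. Leaving out any other single library gave 0 called members, in fits that called at most 18 of all genes.

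The remaining genes of the pathway were looked up as 120 named genes in 7 lists, all with a row and 115 tested. Of these, Creb3l2 alone was called with all 6 libraries, where 2.91% of all genes were. Without M3-CKO replicate 3 there were 15 called higher and 13 lower, in a fit that called 25.0% of all genes. Without replicate 3 of both groups there were 11 and 12, where 2624 of all 13652 genes tested were called. With no low-count filter there were 3 and 1, where 740 of 22457 were called. Creb3l2 encodes an ER-anchored transcription factor of the ATF6-like OASIS family, which acts in secretory capacity. It stood at 39.7, 43.3 and 40.2 CPM in Ctrl and at 20.6, 23.6 and 17.9 CPM in M3-CKO, so that all M3-CKO libraries were near the same level, well below Ctrl (log2 fold change -0.99, SE 0.18, adjusted p = 0.0365). The call was lost with the replicate number as a block and when any library other than M3-CKO replicate 3 was left out.

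The next genes by adjusted p were ATF4-linked metabolic and growth genes, all higher in M3-CKO but not called. Their groups did not overlap, as for 25.2% of the tested other pathway genes and 27.1% of all genes. They were picked by low p from the other targets of the integrated stress response, of which 12 had a positive and 13 a negative log2 fold change. Slc7a11, the cystine transporter, stood at 21.9, 40.0 and 24.5 CPM in Ctrl and at 122, 128 and 53.6 CPM in M3-CKO (1.81, SE 0.38, adjusted p = 0.0503). Mthfd2, a mitochondrial folate enzyme, stood at 23.6, 16.6 and 20.4 CPM in Ctrl and at 39.0, 34.6 and 35.0 CPM in M3-CKO (0.84, SE 0.19, adjusted p = 0.065). Ddit4 (REDD1), an inhibitor of mTORC1, stood at 157, 89.4 and 129 CPM in Ctrl and at 379, 344 and 194 CPM in M3-CKO (1.29, SE 0.30, adjusted p = 0.067). For Slc7a11 and Ddit4 replicate 3 was the lowest M3-CKO library. Among the members, the ATF4 targets Asns, Chac1 and Trib3 had overlapping groups, and the values of Chac1 and Trib3 moved with single libraries, as given above. The part of ATF4 in any of these values was not tested.

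By list, 0 of 18 other ER folding genes, 0 of 12 other ERAD genes, 0 of 14 translocation and export genes, 1 of 21 other regulators, 0 of 25 other targets of the integrated stress response, 0 of 13 cytosolic tRNA synthetases and 0 of 12 heat shock genes were called. At an unadjusted p under 0.05 these lists held 4, 1, 4, 2, 7, 0 and 2 genes, in all 14 higher and 6 lower of 115, where 20.5% of all genes passed. DESeq2 called 2, 0, 1, 1, 5, 0 and 1, in all 8 higher and 2 lower, where it called 10.4% of all genes. The translocation and export genes, many of them XBP1 targets, had 11 negative log2 fold changes out of 14 and a median of -0.19. The tRNA synthetases, of which many are ATF4 targets, lay between -0.28 and 0.24 with a median of 0.00, the narrowest range of the 7 lists. The targets of the integrated stress response had the widest, from -2.17 (Atf3, -0.81 without Ctrl replicate 1) to 1.81 (Slc7a11), with a median of -0.02 and a mean of 0.13. Median and mean differ in sign in this list, in the other ER folding genes (-0.04 and 0.06), in the other ERAD genes and in the tRNA synthetases.

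**Figure D4:**
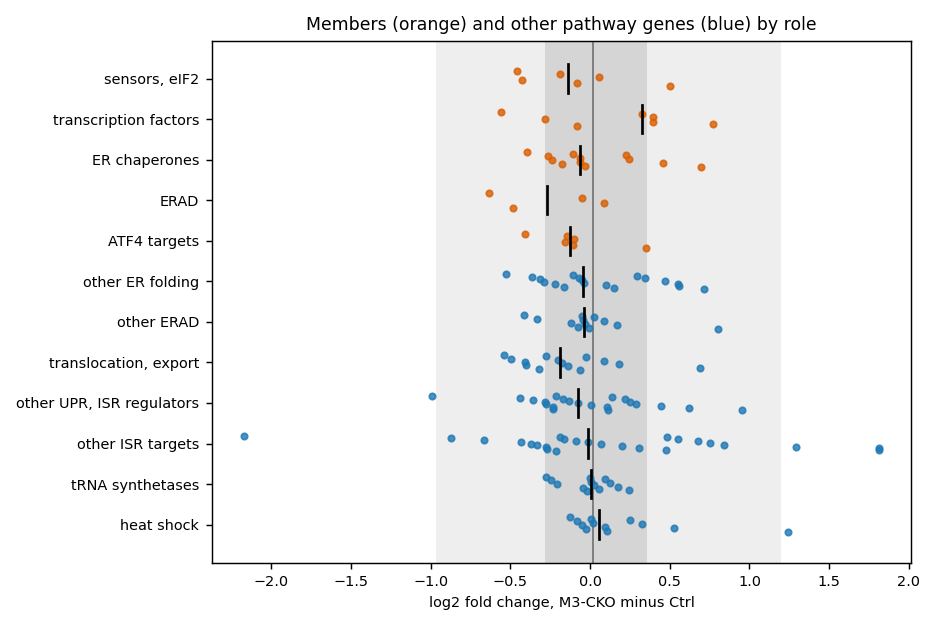
Log2 fold changes (horizontal axis, M3-CKO minus Ctrl) of members (orange) and other pathway genes (blue) by list, with the list median as a black line. The dark and light grey bands hold the middle 50% and 90% of all 13528 tested genes, and the medians of all lists lie inside the dark band.

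Set side by side over the libraries, every branch median was negative in M3-CKO replicates 1 and 2. In M3-CKO replicate 3 those of the chaperones and the transcription factors were positive and the others negative. The median of log2(CPM + 0.5) relative to the Ctrl mean was -0.34, -0.37 and -0.19 for the 4 ERAD genes in M3-CKO replicates 1 to 3, against 0.13, -0.06 and -0.03 in Ctrl, and so did not overlap. The 12 other ERAD genes, which are not members, did not share this. Their medians were -0.14, -0.21 and 0.19 in M3-CKO against 0.03, -0.02 and 0.00 in Ctrl, so the ranges overlapped. For the 12 chaperones among the members the median was -0.09, -0.11 and 0.04 in M3-CKO against 0.08, -0.05 and -0.06 in Ctrl. For the 6 ATF4 targets it was -0.08, -0.26 and -0.25 against 0.39, -0.30 and -0.12, so the widest gap lay within Ctrl. For the transcription factors it was -0.05, -0.06 and 0.23 against 0.30, -0.25 and -0.05, and for the sensors -0.04, -0.11 and -0.26 against 0.02, 0.10 and -0.02. In the sensors, too, every M3-CKO library was below every Ctrl library, though narrowly. These medians describe the genes listed only, and no share over all genes was computed for such medians. Differences between branches were not tested.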

How the data were processed

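The 3 Ctrl and 3 M3-CKO RNA-seq libraries of organoids were used. The labels also list 4 m6A immunoprecipitation and input libraries, which are not analysed here. The deposited values are raw read counts per gene in 1 table. The submitters' processing notes name mm39 as the genome build and featureCounts, HISAT2 and Trim Galore as tools. Versions, annotation and strand setting were not given in the sources used here, so reads of overlapping antisense genes may be included.

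Genes were kept by edgeR's filterByExpr (13528 of 22457), scaled by TMM and tested with edgeR 4.0.16 (quasi-likelihood, R 4.3.3), with Benjamini-Hochberg adjustment over all tested genes at 0.05. Every adjusted p is from this test unless another is named. The SE of a log2 fold change is its size divided by the square root of F. Alternatives used DESeq2 1.42.0 and limma 3.58.1. Scripts were tested on simulated data. At these depths, 10 CPM rests on 87.6 to 103.6 counts. Replicates of a group differed beyond sampling noise. Since nothing says that they are separate animals, p-values cover only library-to-library spread, which may be technical. Motifs were searched in RefSeq promoter windows of build GRCm38.p6, and no mm39 coordinates were used.

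All 36 members and Mettl3 are named. Of the other pathway genes, those called are named, and those of lowest adjusted p up to 4 in all; Atf3 is outside this rule. The members and the lists were chosen with earlier results of these data known. The capitals in the 250-base promoters were chosen after seeing the data.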

Additional observations from a re-analysis of the deposited data

How the results depend on the processing

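The number of members called moved with the setting, and the cause was not tested. Called higher were 1 with library size alone, with a stricter filter or with the 20 most abundant genes left out, 2 by the DESeq2 Wald test and 3 with replicate 3 of both groups left out, and called lower were 1 by DESeq2 and 4 with replicate 3 of both groups left out. Library size alone called 420 of all 13528 genes, the stricter filter 456 of 13113, and the omission of abundant genes 426 of 13508. With replicate 3 of both groups left out, 2624 of 13652 were called. Leaving out single libraries gave 0 to 3 higher and 0 to 8 lower, and only the omission of M3-CKO replicate 3 gave any. Of all genes, 236 higher and 157 lower became 819 and 583 by DESeq2, 456 and 284 without a low-count filter, 1483 and 1141 with replicate 3 of both groups left out, and 0 to 1913 and 0 to 1570 on leaving out single libraries. Mettl3 was called by DESeq2 (-0.70, adjusted p = 0.049) and, within -0.78 to -0.62 on leaving out single libraries, without M3-CKO replicate 3 (adjusted p = 0.043).

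With the replicate number as a block, the replicate block fit called 12 genes higher and 8 lower and 0 members, and gave Chac1 0.13. Same-numbered libraries did not deviate together (r = -0.02, 0.02 and -0.11), so the numbers are not taken as pairs.

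Signs turned, among members not called, with replicate 3 of both groups left out for Eif2ak3 (-0.013), Nupr1 (-0.30), Dnajb9 (0.019), Dnajb11 (-0.28) and Syvn1 (-0.27), and by limma-voom for Chac1 (0.15). On leaving out single libraries, log2 fold changes that crossed 0 ran from -0.049 to 0.14 for Eif2ak3, -0.21 to 0.18 for Atf4, -0.17 to 0.76 for Nupr1, -0.075 to 0.031 for Canx, -0.093 to 0.0035 for Dnajb9, -0.20 to 0.48 for Dnajb11, -0.74 to 0.023 for Sdf2l1, -0.11 to 0.021 for Sel1l, -0.17 to 0.21 for Syvn1, -0.45 to 0.80 for Chac1, -0.64 to 0.14 for Psat1 and -0.37 to 0.062 for Phgdh. No member changed sign under DESeq2 size factors, library size alone or the omission of abundant genes. Ern2, at 0 to 10 counts, was too shallow for the filtered test.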
